A study of Mus musculus with 7 samples.

Results

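The 38 genes described here encode collagens, other proteins of the extracellular matrix, and the enzymes and inhibitors that process them. They are Col1a1, Col1a2, Col3a1, Col5a1, Col5a2, Col6a1, Col6a2, Col6a3, Col4a1, Col4a2, Col2a1, Col11a2, Col12a1, Col16a1, Col18a1, Fn1, Sparc, Postn, Lum, Dcn, Bgn, Ogn, Fbn1, Fstl1, Serpinh1, Lox, Mmp2, Mmp14, Timp2, Timp3, Thbs1, Nid1, Nid2, Lama4, Lamb1, Lamc1, Hspg2 and Comp. The list was given by symbol, all 38 symbols were found among the 49315 genes of the count table, and all 38 passed the filter on low counts, so none was left out. RNA was sequenced from mouse bone marrow after poly(A) selection, in 3 libraries with the genotype miR-181a2b2flox/flox (flox) and 4 with miR-181a2b2-/- (KO). All 7 libraries came from chow-fed mice with hindlimb ischemia, in which blood flow to a leg is cut off surgically, so no library is free of surgery. The sample titles call the flox libraries WT. The labels name no strain, sex, age, time after surgery or Cre driver. The labels do not say whether each library came from its own animal, so the spread that p-values rest on is that between libraries and may be technical.

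Total counts ran from 43110251 to 51688514 per library. The 8 markers of marrow blood cells, among them Ptprc, Mpo and Cd79a, summed to between 29730 and 37110 CPM (counts scaled to a common library size, by the TMM method). S100a8, Ngp and Hba-a1 made up most of this sum, which therefore says little about the other markers. Cd79a, a B cell gene, stood at 11.8 CPM in flox 1. It stood at 87.1 and 126 CPM in flox 2 and 3 and at 137 to 169 CPM in KO. White adipose tissue is named in the extraction protocol, although the source given is bone marrow. The 8 white adipocyte markers summed to between 69.1 and 122 CPM. Flox 1 stood apart on the first principal component of all tested genes (34.7% of the variance), at -58.73 against -14.17 and -5.48 for the other flox libraries and 16.57 to 23.17 for the KO libraries. For the 38 genes, the main counts of genes lower in KO and the list and class medians are therefore also given without flox 1. So are the values of listed genes that moved by over 1.5 times without it. Marker lists, related genes outside the 38 and genes split by microRNA match are summarized with flox 1 included only.

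The matrix of marrow has several layers. Fibrillar collagens, made by osteoblasts and stromal cells, bear load in bone and around vessels. Type IV collagen, laminins, nidogens and perlecan form basement membranes under endothelium and around sinusoids. Collagen chains fold into a triple helix in the endoplasmic reticulum with the help of the chaperone HSP47, are cross-linked outside the cell by lysyl oxidase, and are cut by metalloproteinases that TIMP proteins inhibit. Blood cells contribute matrix too: macrophages make fibronectin, and platelets store thrombospondin 1 and SPARC.

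The deleted cluster encodes 2 microRNAs with the same seed, and their mature sequences are shown because the listed genes were searched for matches to it. Both are from RefSeq (GRCm38.p6) and lie on the plus strand of chromosome 2, at 38852741 to 38852763 for miR-181a-5p and 38853845 to 38853868 for miR-181b-5p. Capitals mark the seed, bases 2 to 8.
miR-181a-5p: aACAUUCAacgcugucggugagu
miR-181b-5p: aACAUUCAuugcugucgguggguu

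The DNA letters that pair with this seed, TGAATGT, were searched on the sense strand of each gene's longest 3' UTR in the annotation (GENCODE M21, GRCm38). Of the 38 genes, 10 held at least 1 match (26.3%), against 17.8% of the 14275 tested genes with an annotated 3' UTR. The median 3' UTR length was 981.5 bases in the listed genes and 1129 bases in all of these. The 10 genes were Col5a1, Col5a2, Col6a3, Col12a1, Col16a1, Col4a1, Lamc1, Lox, Timp2 and Timp3. Timp3 held 2 matches, 1 of them an 8mer (the 7 letters followed by A), and the match in Lox was an 8mer too. The protein of Timp3 is the inhibitor of metalloproteinases that binds to the matrix itself. The sites of Timp3 and Col4a1 are shown with their flanking bases, written as DNA 5′ to 3′, with the match in capitals. On GRCm38 they lie in 3' UTRs at chr10:86348321-86348327 and chr10:86349416-86349423 (Timp3, plus strand) and chr8:11199005-11199011 (Col4a1, minus strand).
Timp3 first site: attatatcgTGAATGTtttattttg
Timp3 second site: tatattccgTGAATGTAtattgtct
Col4a1 site: tcaggccacTGAATGTgaaacacca

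Of the 10 genes with a match, 9 had a log2 fold change below 0 (KO minus flox), against 1383 of 2542 tested genes with a match. The median of the 10 genes was -0.76. The 28 genes without a match had a median of -0.75. Over all tested genes with a 3' UTR, the medians were -0.02 with and -0.02 without a match. The listed genes with and without a match thus had nearly equal medians, both below 0. The microRNA genes Mir181a-2 and Mir181b-2 had 0 counts in all 7 libraries, and since mature microRNAs carry no poly(A) tail, the deletion could not be checked here.

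Across the 38 genes, levels stood lower in KO than in flox for nearly all members, but 1 gene passed the test. The exception was Col2a1, the chain of cartilage type II collagen, which fell by 1.45 on the log2 scale. An edgeR quasi-likelihood test with Benjamini-Hochberg adjustment over the 17920 tested genes called 1 of the 38 lower and 0 higher at an adjusted p of 0.05. Among all tested genes 0.0112% were called lower (2 genes) and 0.134% higher. The sign of the log2 fold change was below 0 in 35 of 38, against 51.9% of all tested genes, and the median was -0.75 against -0.01. The unadjusted edgeR p was under 0.05 with a lower level in KO for 25 of 38 members, where 8.17% of all tested genes were, and with a higher level for 0 members, where 5.89% of all tested genes were. In 15 of 38, all 4 KO libraries lay below all 3 flox libraries, against 7.41% of all tested genes, and in 0 they lay above, against 6.22%. DESeq2 called 11 of the 38 lower, against 0.783% of all genes that it tested: Col1a2, Col5a2, Col6a1, Col6a2, Col4a1, Col2a1, Col11a2, Sparc, Bgn, Serpinh1 and Timp3. In other fits to all 7 libraries that changed the count, the share of all genes called lower was 0.00558% both with limma-voom and with dispersion that is not robust, where 0 members were called, and 0.0905% with no filter on low counts, where 2 were (Col6a2 and Col2a1).

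Flox 1 carried the highest level of most of these genes. It was the highest of the 7 libraries for 30 of 38 members, against 20.3% of all tested genes. Its median ratio to flox 2 was 1.623 and to flox 3 was 1.499. Without flox 1, edgeR called 0 of the 38 (0% of all genes tested then were called lower), the log2 fold change was below 0 in 32 (50.3% of all genes tested then), and the median was -0.48. The unadjusted p was then under 0.05 with a lower level in KO for 15 of 38, against 6.11% of all genes tested then. All 4 KO libraries lay below both flox 2 and flox 3 for 16 members, against 10.9% of all tested genes.

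**Figure D1:**
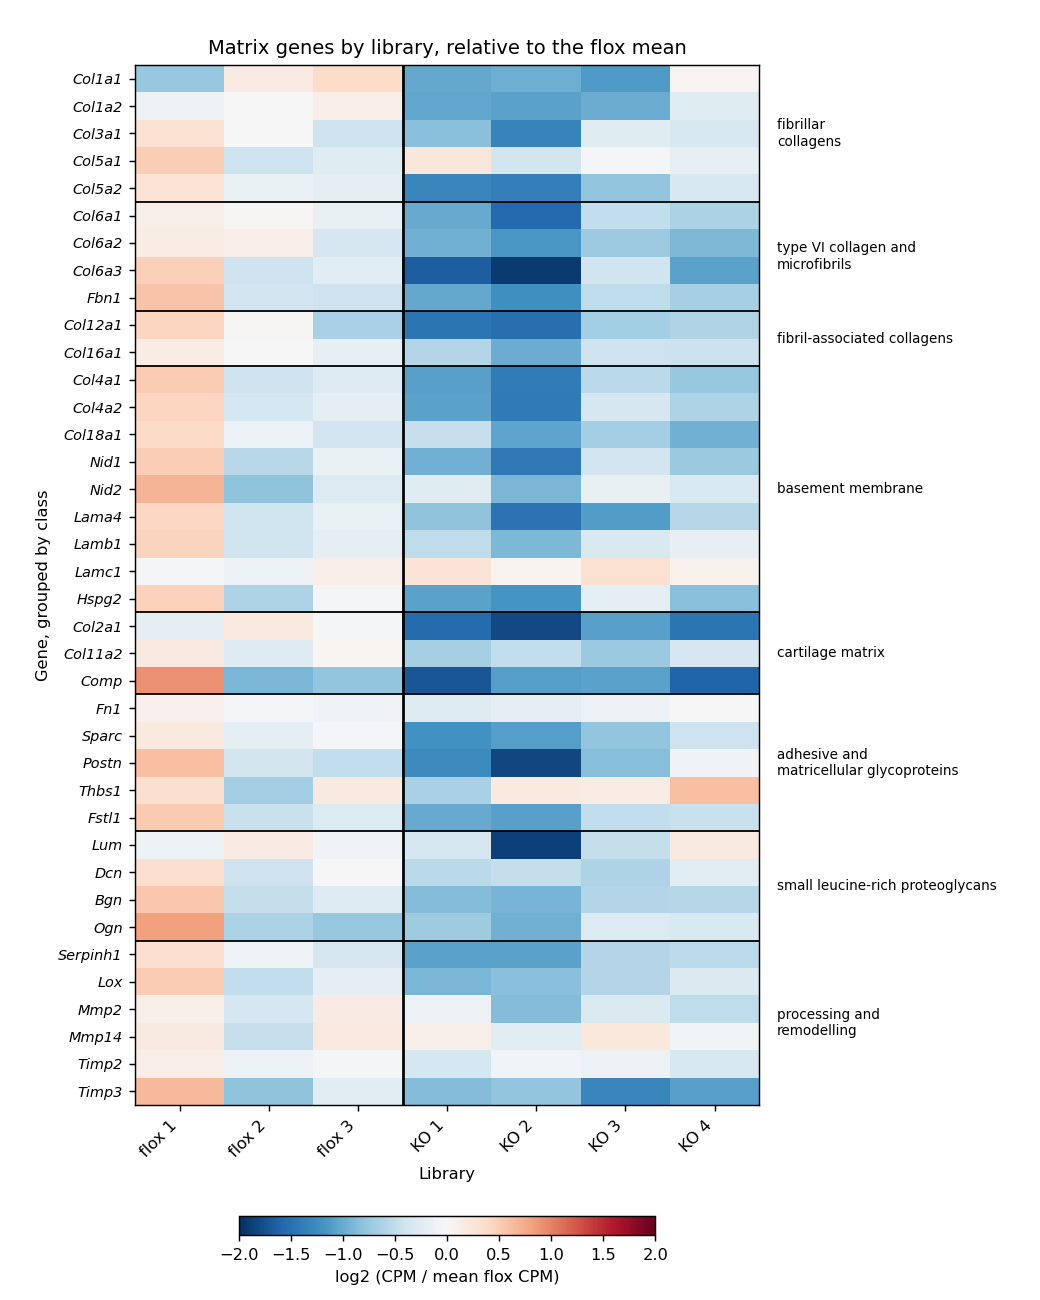
Level of each of the 38 genes (rows, by class) in each library (columns) as log2 of its CPM over the mean CPM of the 3 flox libraries; blue is lower and red higher, with the scale cut at -2 and 2. The flox 1 column is red in most rows but below the flox mean for Col1a1, Col1a2, Col2a1, Lum and Lamc1, most clearly for Col1a1. The KO columns are blue in most rows, with Lamc1, Thbs1, Mmp14 and Col5a1 as pale or red exceptions.

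Markers of cells that make matrix were read in the same libraries. The summed levels of flox and KO overlapped for reticular stroma, endothelium, osteoblasts, and megakaryocytes and platelets. Of 8 reticular stroma markers, such as Cxcl12 and Lepr, all 8 had a log2 fold change below 0 (median -0.72), and their sum ran from 547 to 1243 CPM in flox and from 508 to 628 CPM in KO, with the 1243 CPM in flox 1. Of 8 endothelial markers 7 were below 0 (median -0.62), with sums of 97.01 to 140 CPM in flox, highest in flox 1, and 102 to 110 CPM in KO. Pecam1, the marker above 0, was the largest part of these, at 48.4 to 65.8 CPM in flox and 62.8 to 72.6 CPM in KO. Of 8 osteoblast markers 7 were below 0 (median -0.47), with sums of 79.5 to 96.8 CPM, also highest in flox 1, and 58.1 to 86.7 CPM. Runx2 made up most of these, at 50.6 to 51.9 CPM in flox and 41.5 to 52.9 CPM in KO. All 8 megakaryocyte and platelet markers were below 0 (median -0.66), with sums of 449 to 855 and 336 to 502 CPM, the 855 CPM again in flox 1. Macrophage markers had a median of -0.06 and fibroblast and periosteum markers one of -0.20. The fibroblast and periosteum sums did not overlap, at 523 to 590 CPM in flox and 443 to 515 CPM in KO. Gsn, at 304 to 332 CPM in flox and 256 to 314 CPM in KO, was the largest part of these. The 8 smooth muscle markers had a median of 0.35. Of the neuronal markers 7 of 8 were tested, and all 7 were below 0 (median -0.95). Snap25 passed as lower, where 0.0112% of all tested genes did (2 genes). For 5 of the 7, all KO libraries lay below all flox libraries, against 7.41% of all tested genes. The neuronal sums did not overlap, at 11.3 to 15.2 CPM in flox and 6.48 to 8.13 CPM in KO. None of the other markers in this paragraph passed the test, and none was at 0 counts in every library. Their part in the results was not tested, and in bulk RNA fewer cells of a type and less RNA per cell cannot be told apart.

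Fibrillar collagens form the load-bearing cables of bone and connective tissue. All 5 listed genes had a log2 fold change below 0 (median -0.69), 3 of them with an unadjusted edgeR p under 0.05, and 0 passed. Col1a2, the second chain of type I collagen (chromosome 6, 4504814 to 4541544, plus strand, GRCm38), stood at 75.1, 81.0 and 89.3 CPM in flox 1, 2 and 3 and at 40.0, 39.0, 41.0 and 69.1 CPM in KO 1 to 4. KO 1, KO 2 and KO 3 lay close together and KO 4 stood well above them, still below every flox library. The log2 fold change was -0.79 (SE 0.21, edgeR adjusted p = 0.22). Without KO 4 it was -1.03, and Col1a2 passed (edgeR adjusted p = 0.00974), where 0.00564% of all genes tested then were called lower. With any other library left out Col1a2 did not pass, at edgeR adjusted p from 0.226 to 0.391.

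Col1a1, the first chain of type I collagen (chromosome 11, 94936224 to 94953042, plus strand), stood at 35.9, 67.9 and 78.7 CPM in flox and at 29.9, 31.0, 27.9 and 62.5 CPM in KO. Here flox 1 and KO 4 each left their own group: flox 1 lay near the low KO libraries and KO 4 near the flox libraries, so the groups overlapped. The log2 fold change was -0.69 (SE 0.39, edgeR adjusted p = 0.504), and -0.96 without flox 1. Unlike most of the list, Col1a1 was thus low in flox 1 relative to the other flox libraries.

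Col5a2 and Col5a1 encode chains of type V collagen, which sits in the core of type I fibrils and sets their width. Col5a2 stood at 7.65, 5.82 and 5.58 CPM in flox and at 2.57, 2.47, 3.66 and 5.08 CPM in KO, without overlap (log2 fold change -0.88, SE 0.25, edgeR adjusted p = 0.223). Col5a1 ran from 20.7 to 38.8 CPM in flox and from 21.4 to 32.1 CPM in KO, with a log2 fold change of -0.07 (SE 0.23), and of 0.26 without flox 1. It was also above 0 without KO 2, at 0.04, so Col5a1 had no stable direction. Col3a1, the collagen of elastic and vessel-rich tissues, stood at 9.12, 7.46 and 5.56 CPM in flox and at 4.13, 2.92, 6.26 and 5.90 CPM in KO (difference on the log2 scale -0.62, SE 0.27, edgeR adjusted p = 0.349). Flox 3 lay below KO 3 and KO 4, so its groups overlapped.

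**Figure D2:**
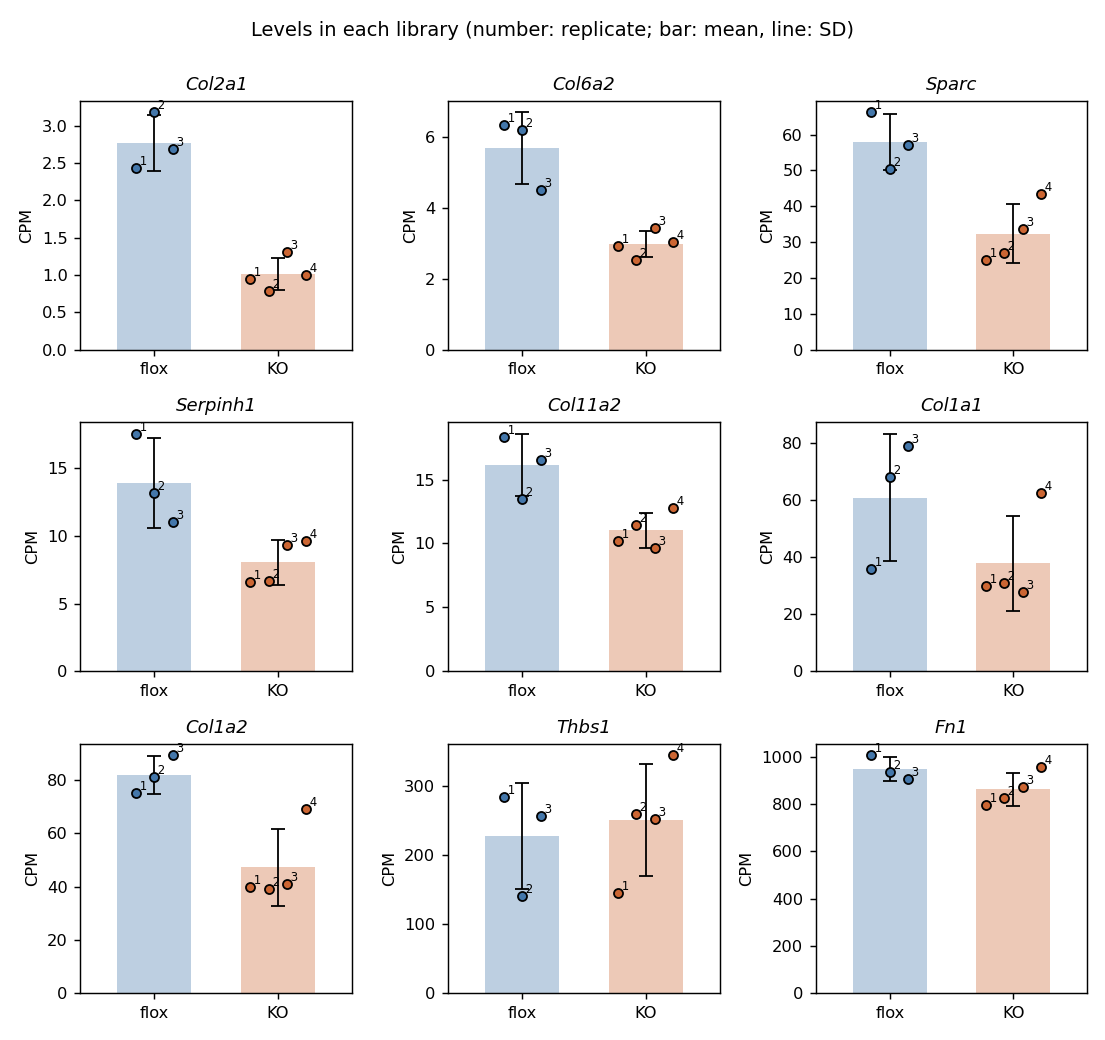
CPM of 9 genes in flox (3 libraries) and KO (4 libraries); points are libraries numbered by replicate, bars the group mean, and lines 1 SD on each side. Col2a1, Col6a2, Sparc, Serpinh1, Col11a2 and Col1a2 show no overlap between groups, while Col1a1, Thbs1 and Fn1 do, and KO 4 is the highest KO library for Col1a1 (62.5 CPM) and Col1a2 (69.1 CPM).

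Type VI collagen builds beaded microfilaments around cells, and fibrillin 1, the product of Fbn1, builds the microfibrils that carry elastin. All 4 listed genes had a log2 fold change below 0 (median -0.90), all with an unadjusted edgeR p under 0.05, and 0 passed. Col6a2 (chromosome 10, 76595762 to 76623630, minus strand) stood at 6.31, 6.19 and 4.51 CPM in flox and at 2.91, 2.54, 3.42 and 3.03 CPM in KO. The groups did not overlap, and the KO libraries were close to each other. Its log2 fold change was -0.93 (SE 0.17, edgeR adjusted p = 0.0965), and -0.85 without flox 1.

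Col6a1 lies near Col6a2 on chromosome 10 (76708792 to 76726168, minus strand) and encodes another chain of the same trimer. It stood at 9.78, 9.14 and 8.18 CPM in flox and at 4.47, 3.09, 6.39 and 5.83 CPM in KO, again without overlap (log2 fold change -0.87, SE 0.22, edgeR adjusted p = 0.197). Col6a3, the largest chain, stood at 5.52, 2.97 and 3.38 CPM in flox and at 1.27, 1.05, 2.99 and 1.89 CPM in KO (-1.14, SE 0.37, edgeR adjusted p = 0.254). KO 3 reached the level of flox 2, so Col6a3 overlapped between groups. Fbn1 ran from 10.04 to 19.9 CPM in flox and from 5.76 to 9.45 CPM in KO (-0.83, SE 0.27), and its value without flox 1 was -0.44. Of its exon bases, 20.14% are shared with Gm9913 on the opposite strand, and because it is not stated whether counting used strand, reads there cannot be told apart.

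Fibril-associated collagens decorate the surface of fibrils. Col12a1 stood at 5, 3.75 and 2.35 CPM in flox and at 1.35, 1.30, 2.31 and 2.44 CPM in KO (difference on the log2 scale -1.003, SE 0.31, edgeR adjusted p = 0.235). Flox 3 fell within the range of the KO libraries. Col16a1 stood at 2.31, 2.07 and 1.86 CPM in flox and at 1.39, 1.05, 1.56 and 1.55 CPM in KO, without overlap (-0.59, SE 0.20, edgeR adjusted p = 0.264).

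Basement membrane genes were the largest class, and 8 of 9 had a log2 fold change below 0 (median -0.77, and -0.51 without flox 1). Of the 9, 6 had an unadjusted edgeR p under 0.05 and 0 passed. Lama4, the laminin chain typical of endothelium, had the lowest p of the class and the lowest level per exon length of all 38 genes. It stood at 2.83, 1.62 and 1.94 CPM in flox and at 1.22, 0.768, 0.983 and 1.43 CPM in KO (difference on the log2 scale -0.95, SE 0.27, edgeR adjusted p = 0.22). Its groups did not overlap, but flox 2 and KO 4 lay close together, from counts of 36 to 142 per library.

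Col4a1 encodes the main chain of the basement membrane network. It stood at 23.7, 12.6 and 14.0 CPM in flox and at 7.86, 6.33, 11.6 and 9.95 CPM in KO (-0.91, SE 0.27, edgeR adjusted p = 0.232), with flox 1 far above the other flox libraries. Without flox 1 its log2 fold change was -0.58. Col4a2, its partner in the same trimer, starts close by on the opposite strand of chromosome 8 and gave -0.80 (SE 0.28), and -0.53 without flox 1. Col18a1, the source of the fragment endostatin, stood at 2.33, 1.64 and 1.37 CPM in flox and at 1.29, 0.853, 1.11 and 0.910 CPM in KO (-0.77, SE 0.25, edgeR adjusted p = 0.239). Nid1, which links laminin to type IV collagen, gave -0.84 (SE 0.29), and Hspg2, the perlecan gene, gave -0.77 (SE 0.30). Without flox 1 these were -0.51 for Nid1 and -0.47 for Hspg2.

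The other members of the class were nearer to 0 or went the other way. Lamb1 gave -0.44 (SE 0.24) with all libraries and -0.16 without flox 1, and Nid2 gave -0.38 (SE 0.34) with all libraries and 0.13 without flox 1. Nid2 shares 8.45% of its exon bases with Rtraf on the opposite strand. Lamc1, the gamma chain found in most laminins, ran from 13.6 to 16.3 CPM in flox and from 15.4 to 18.2 CPM in KO. The difference was 0.18 on the log2 scale, with an interval of -0.06 to 0.41 at 95% (SE 0.105), and edgeR gave an adjusted p of 0.493.

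Cartilage matrix genes included the 1 member that passed. Col2a1 (chromosome 15, 97975602 to 98004695, minus strand, GRCm38) stood at 2.43, 3.18 and 2.69 CPM in flox, from 122, 155 and 126 counts. In KO it stood at 0.949, 0.789, 1.30 and 1.001 CPM, from 45, 37, 61 and 44 counts. Every KO library lay below every flox library, and flox 1 was the lowest flox library here. On the log2 scale it fell by 1.45 (SE 0.21), with a 95% interval of -1.92 to -0.98 and an edgeR adjusted p of 0.0405. Leaving out any of the 7 libraries left it between -1.58 and -1.32 and ended the call, with edgeR adjusted p from 0.0564 without flox 1 to 0.147 without KO 2. Col2a1 also missed the threshold with limma-voom (adjusted p = 0.0545) and in edgeR with dispersion that is not robust (adjusted p = 0.0574).

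Col11a2, a chain of the cartilage collagen type XI, stood at 18.4, 13.5 and 16.5 CPM in flox and at 10.2, 11.4, 9.66 and 12.8 CPM in KO. Its groups did not overlap, though flox 2 and KO 4 were close (-0.55, SE 0.14, edgeR adjusted p = 0.178). Comp, a pentameric protein of cartilage and tendon, stood at 4.70, 1.31 and 1.43 CPM in flox and at 0.759, 1.15, 1.18 and 0.819 CPM in KO. The level in flox 1 set its log2 fold change, which was -1.34 (SE 0.46, edgeR adjusted p = 0.268) with and -0.49 without that library. The class median was -1.34, and -0.49 without flox 1.

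Other genes of cartilage were low or varied. Of 8 chondrocyte markers, Acan had 0 to 4 counts per library, Col9a1 0 to 2 and Col9a2 1 to 10, and 2 of the 8 passed the filter on low counts, with log2 fold changes of -0.24 (Col10a1) and -0.50 (Cnmd). The 8 markers summed to between 0.940 and 1.25 CPM in flox and between 0.512 and 1.20 CPM in KO. Col11a2, at 9.66 CPM or more in every library, was thus above the sum of these markers. Col11a1, the partner chain of Col11a2, stood at 1.35, 2.66 and 1.90 CPM in flox and at 1.08, 0.938, 0.748 and 2.03 CPM in KO (-0.72, SE 0.36, edgeR adjusted p = 0.396), with KO 4 inside the flox range. Col9a3, a chain of type IX collagen with 33 to 63 counts per library, gave 0.29 (SE 0.26). Both were looked at after their values were seen, and the part of cartilage cells in these results was not tested.

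Adhesive and matricellular glycoproteins included Fn1 and Thbs1, the most abundant genes of the list per exon length. Fn1, the fibronectin gene, ran from 905 to 1006 CPM in flox and from 796 to 957 CPM in KO (difference on the log2 scale -0.14, SE 0.09, 95% interval -0.33 to 0.06). Thbs1, a platelet and macrophage adhesion protein, stood at 284, 140 and 257 CPM in flox and at 145, 258, 252 and 344 CPM in KO. It overlapped over nearly the whole range, with its lowest library in flox and its highest in KO (0.14, SE 0.35, and 0.33 without flox 1). Sparc, a collagen-binding protein abundant in bone and platelets (chromosome 11, 55394500 to 55423183, minus strand), stood at 66.2, 50.5 and 57.2 CPM in flox and at 25.1, 27.1, 33.5 and 43.4 CPM in KO. All KO libraries lay below all flox libraries, and the log2 fold change was -0.84 (SE 0.19, edgeR adjusted p = 0.166), and -0.74 without flox 1.

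Fstl1, a secreted relative of SPARC, stood at 28.7, 14.6 and 16.5 CPM in flox and at 9.93, 9.36, 14.2 and 14.7 CPM in KO (-0.73, SE 0.27, edgeR adjusted p = 0.294). Flox 1 stood far above the rest, and without it the value was -0.38. Postn, the periosteal protein periostin, stood at 5.36, 2.73 and 2.5 CPM in flox and at 1.46, 1.002, 1.95 and 3.35 CPM in KO (-0.87, SE 0.42, edgeR adjusted p = 0.4). KO 4 lay above flox 2 and flox 3 for this gene, and without flox 1 the value was -0.44.

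Small leucine-rich proteoglycans bind fibrils and regulate their assembly. All 4 had a log2 fold change below 0 (median -0.50, and -0.31 without flox 1). Bgn, the biglycan gene on the X chromosome, stood at 70.8, 35.2 and 41.0 CPM in flox and at 26.9, 25.6, 32.7 and 33.0 CPM in KO (-0.73, SE 0.24, edgeR adjusted p = 0.267). Its groups did not overlap, but the value was -0.37 without flox 1. Dcn, the decorin gene, stood at 6.37, 3.79 and 5.02 CPM in flox and at 3.48, 3.65, 3.31 and 4.39 CPM in KO (-0.45, SE 0.19, edgeR adjusted p = 0.342), with KO 4 above flox 2, and -0.25 without flox 1.

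Ogn, the osteoglycin gene, stood at 8.74, 3.20 and 2.93 CPM in flox and at 3.04, 2.54, 4.10 and 4.03 CPM in KO (-0.53, SE 0.39, edgeR adjusted p = 0.604). Only flox 1 exceeded the KO range, and without it the log2 fold change was 0.16. Lum, the lumican gene, gave -0.46 (SE 0.38) from 13 to 55 counts per library.

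Of the 6 genes for processing and remodelling, 5 had a log2 fold change below 0 (median -0.53, and -0.33 without flox 1), 3 had an unadjusted edgeR p under 0.05, and 0 passed. Serpinh1 encodes HSP47, the chaperone dedicated to folding collagen. It stood at 17.5, 13.1 and 11 CPM in flox and at 6.60, 6.63, 9.30 and 9.63 CPM in KO, without overlap (log2 fold change -0.79, SE 0.20, edgeR adjusted p = 0.186). Timp3 stood at 31.1, 11.3 and 17.1 CPM in flox and at 10.9, 11.4, 8.02 and 9.31 CPM in KO (-1.002, SE 0.32, edgeR adjusted p = 0.261). Its 2 seed matches are shown above, flox 2 lay within the KO range, and without flox 1 the value was -0.52. Syn3 on the opposite strand shares 21.28% of the exon bases of Timp3.

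Lox, the lysyl oxidase gene, stood at 8.61, 4.28 and 5.26 CPM in flox and at 3.23, 3.39, 4.04 and 4.96 CPM in KO (-0.63, SE 0.25, edgeR adjusted p = 0.31). KO 4 lay above flox 2, and without flox 1 the value was -0.29. The proteases and their other inhibitor differed less. The gelatinase gene Mmp2 gave -0.42 (SE 0.22) and Mmp14, the membrane-bound collagenase, gave 0.02 (SE 0.17, 95% interval -0.36 to 0.41), and 0.12 without flox 1. Timp2, which helps MMP14 to activate MMP2, ran from 91.8 to 109 CPM in flox and from 78.5 to 95.8 CPM in KO (-0.21, SE 0.09, edgeR adjusted p = 0.362).

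**Figure D3:**
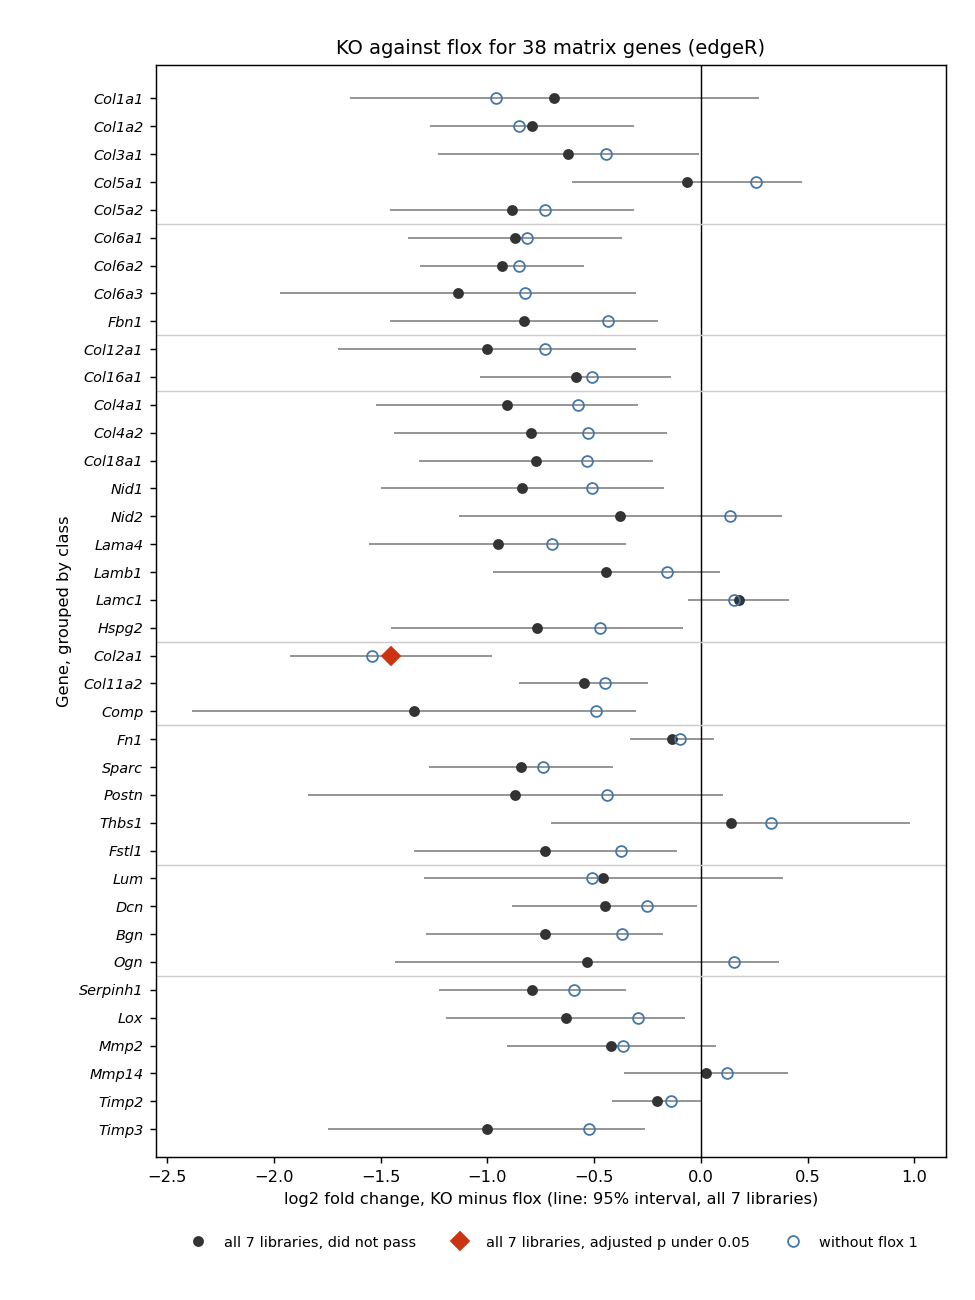
log2 fold change of each gene, KO minus flox, from edgeR; filled points use all 7 libraries with 95% intervals as lines, open circles leave out flox 1, and the red diamond marks the gene that passed (Col2a1, -1.45). Most open circles lie nearer to 0 than the filled points, with Col1a1, Col1a2, Col5a1, Col2a1, Lum, Thbs1 and Mmp14 as exceptions, and Col5a1, Nid2 and Ogn cross 0.

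Set side by side, the class medians were -0.69 for fibrillar collagens, -0.77 for basement membrane, -1.34 for cartilage matrix and -0.53 for processing and remodelling. Without flox 1 they were -0.73, -0.51, -0.49 and -0.33. The order of the classes thus depended on that library, and differences between classes were not tested. The cartilage median was the value of Comp in both fits, while Col2a1 was at -1.45 with and -1.54 without flox 1. The medians of fibrillar collagens and of type VI collagen with microfibrils (-0.90, and -0.82 without flox 1) moved least with its removal. Single fibrillar genes moved more and in opposite directions, Col1a1 from -0.69 to -0.96 and Col5a1 from -0.07 to 0.26.

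Levels between genes can be compared per kilobase of exon (RPKM, with all annotated exons of a gene merged, which lowers the value of genes with many alternative exons). On this scale Fn1 led at a mean of 77.6 RPKM, followed by Thbs1 at 39.2, Timp2 at 23.9, Sparc at 11.9 and Col1a1 at 7.51 RPKM. The 3 leading genes were among those with log2 fold changes closest to 0 (-0.14, 0.14 and -0.21). Lama4 (0.134 RPKM), Col12a1 (0.182), Col18a1 (0.201) and Col2a1 (0.204) were the lowest. The summed CPM of all 38 genes, which Fn1 and Thbs1 dominate, was 1616 to 2006 in flox and 1323 to 1788 in KO, and these ranges overlapped. For the 5 fibrillar collagens the sum was 167 to 202 CPM in flox and 96.8 to 167 CPM in KO, with flox 1 (166.6) just under KO 4 (167.2).

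**Figure D4:**
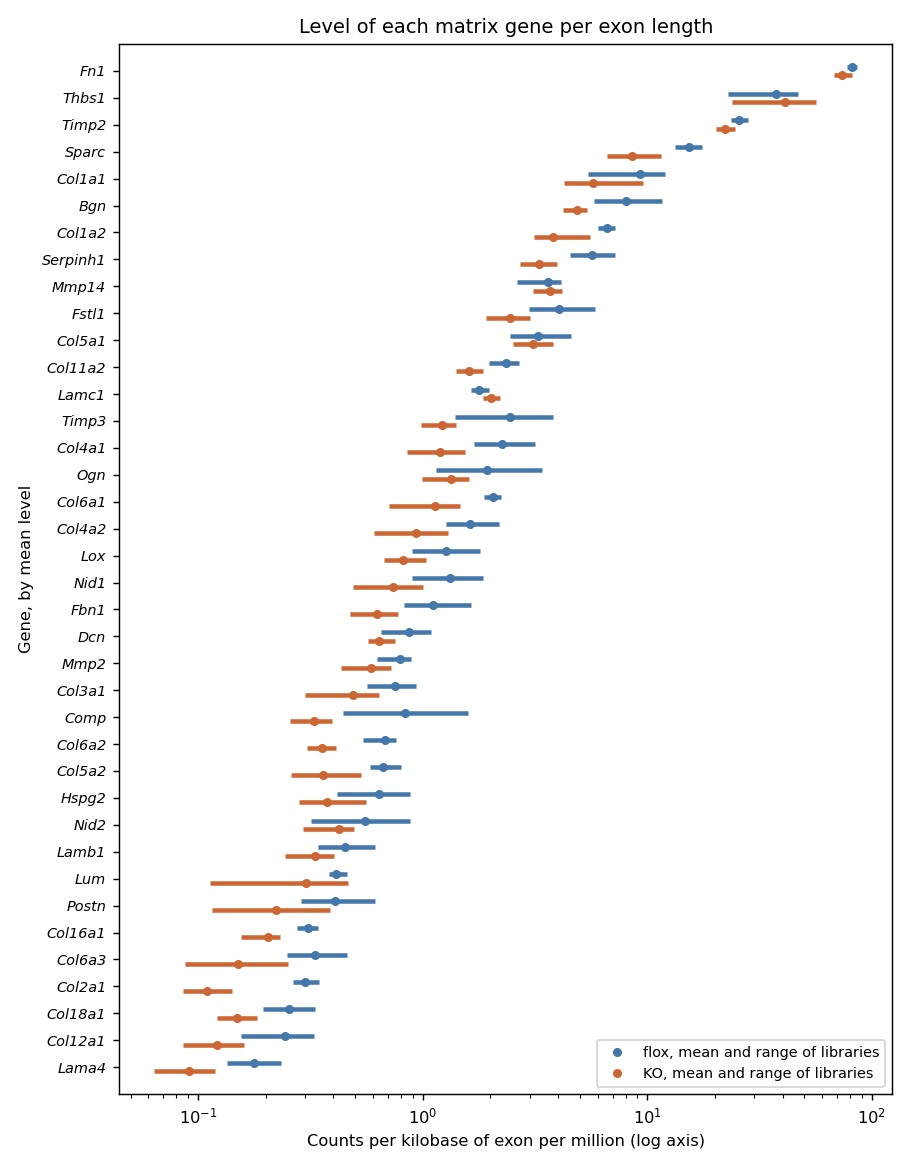
Level of each gene per exon length (RPKM, log axis), ordered by the mean of the group means; points are group means and lines the range of the 3 flox (blue) and 4 KO (orange) libraries. Fn1, Thbs1 and Timp2 lead the order with overlapping ranges, and the 4 lowest genes are Col2a1, Col18a1, Col12a1 and Lama4.

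Chains that assemble into the same protein can be compared within a library, where the depth cancels. The Col1a1 to Col1a2 ratio per exon length was 0.905 in flox 1, against 1.59 and 1.67 in flox 2 and 3 and 1.29 to 1.71 in KO. Flox 1 was therefore the single library in which Col1a1 lay below Col1a2 on this scale. The size of such a ratio depends on the merged exon lengths, but its variation between libraries does not. The Col4a1 to Col4a2 ratio was the steadiest of the 6 computed, at 1.32 to 1.45 in flox and 1.20 to 1.40 in KO.

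Other pairs varied more. The Col5a1 to Col5a2 ratio was 5.73, 4.01 and 4.70 in flox and 14.1, 9.76, 8.40 and 5.50 in KO, so that 3 KO libraries exceeded every flox library and KO 4 did not. The Lamb1 to Lamc1 ratio was 0.202 to 0.351 in flox and 0.131 to 0.216 in KO. Ratios to Col6a2 overlapped, at 2.81 to 3.45 in flox and 2.32 to 3.66 in KO for Col6a1, and 0.334 to 0.608 and 0.287 to 0.609 for Col6a3.

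**Figure D5:**
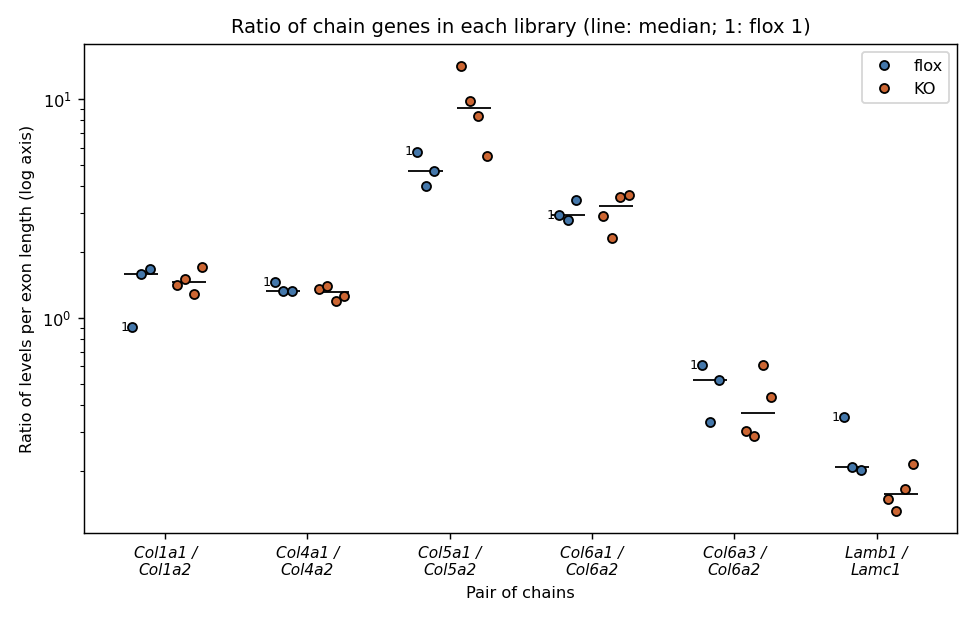
Ratio of levels per exon length (log axis) of 6 pairs of chain genes in each flox (blue) and KO (orange) library, with the group median as a line and flox 1 marked 1. Flox 1 sits apart for Col1a1 to Col1a2 (0.905) and for Lamb1 to Lamc1 (0.351), and 3 of 4 KO libraries lie above flox for Col5a1 to Col5a2.

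Promoter windows (250 bases before to 50 after the start) were in the RefSeq table used here (GRCm38.p6) for 24 of the 38 genes, as 27 windows. Those of Col1a2 and Col6a2 are shown as examples. Each had the lowest edgeR p of its class, as did Sparc, Bgn and Serpinh1, whose windows are not shown. A set of 3 motifs were searched on both strands: the TATA box TATAAA, the CCAAT box CCAAT and the GC box GGGCGG. Overlapping matches were counted. Capitals mark the matches, 5′ to 3′ on the gene's strand. The windows lie at chr6:4505368-4505667 (Col1a2, plus strand) and chr10:76623355-76623654 (Col6a2, minus strand, 1 of 2 windows in the table).
Col1a2: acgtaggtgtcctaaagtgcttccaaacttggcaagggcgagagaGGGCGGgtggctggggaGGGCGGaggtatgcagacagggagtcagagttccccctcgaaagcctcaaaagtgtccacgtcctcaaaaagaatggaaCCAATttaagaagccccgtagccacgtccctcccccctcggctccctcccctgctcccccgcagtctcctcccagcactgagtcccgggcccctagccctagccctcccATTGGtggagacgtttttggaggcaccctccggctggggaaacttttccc
Col6a2: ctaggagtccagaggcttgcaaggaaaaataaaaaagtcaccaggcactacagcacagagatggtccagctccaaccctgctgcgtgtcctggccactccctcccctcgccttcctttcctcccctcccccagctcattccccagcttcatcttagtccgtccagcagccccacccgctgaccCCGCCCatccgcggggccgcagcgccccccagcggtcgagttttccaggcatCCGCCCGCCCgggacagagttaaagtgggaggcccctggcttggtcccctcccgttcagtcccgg

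Both promoters held GC boxes, and that of Col1a2 held a CCAAT box on each strand as well. The GC box was found in 19 of the 27 windows (70.4%), against 35.7% of all 32851 windows and 57.4% of the windows of tested genes. CCAAT was found in 37.0%, against 37.4% of all windows and 37.0% of those of tested genes. TATAAA was found in 14.8%, against 13.6% of all windows and 8.0% of those of tested genes, in the genes Col3a1, Col11a2, Postn and Ogn. A match describes letters only and was not tied to any difference in level.

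Related matrix genes outside the list of 38 were mostly lower in KO by sign in 4 of 5 groups, and 0 of them passed. Of 28 enzymes that process collagen 26 were tested, 22 with a log2 fold change below 0 (median -0.31). The unadjusted edgeR p was under 0.05 with a lower level for 8 of the 26 (30.8%, against 8.17% of all tested genes) and with a higher level for 1 (against 5.89% of all tested genes). Adamts2, which trims the ends of procollagen, gave -0.92 (SE 0.25, edgeR adjusted p = 0.213), while Adamts14, with the same activity, gave 0.70 (SE 0.20, edgeR adjusted p = 0.22). Of 39 other glycoproteins and proteoglycans 33 were tested, 28 of them below 0 (median -0.47). Of the 33, 14 had a lower level with an unadjusted edgeR p under 0.05 (42.4%, against the same 8.17%). They included Emilin1, an elastic fibre protein (-0.47, SE 0.11, edgeR adjusted p = 0.149), and Prelp, a leucine-rich proteoglycan (-0.95, SE 0.25, edgeR adjusted p = 0.208).

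Of 23 other proteases and inhibitors 20 were tested, 17 below 0 (median -0.33). The osteoclast collagen-cleaving protease Ctsk gave -1.14 (SE 0.29) and the neutrophil protease Mmp25 gave -0.33 (SE 0.10). All 22 matrix receptors were tested, 16 below 0 (median -0.18), with Mrc2, the collagen uptake receptor, at -1.08 (SE 0.26) and the platelet integrin gene Itgb3 at -0.59 (SE 0.18). The group that differed was that of the other collagens, where 20 of 29 were tested, 11 below 0 and 9 above, with a median of -0.08. Col8a1, a collagen of vessel walls, gave -0.82 (SE 0.29, edgeR adjusted p = 0.274), and Col17a1, of epithelial hemidesmosomes, gave 1.20 (SE 0.42, edgeR adjusted p = 0.268). The 8 intestinal epithelial markers stood at a summed 28.8 to 31.4 CPM in flox and 70.3 to 76.9 CPM in KO. All 8 had a log2 fold change above 0, and 7 passed as higher, against 0.134% of all tested genes. Their part in the level of Col17a1 was not tested.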

How the data were processed

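The deposited table holds raw read counts per Ensembl gene, made by the authors with Trimmomatic 0.36, STAR 2.5.2b, featureCounts and Subread 1.5.2 on GRCm38, per the submitters' processing notes. Neither the gene models nor the strand and multi-mapping settings of the counting are stated in the sources used here. Columns were matched to samples by the library codes in the labels, and 0 columns were left over. Symbols, exon lengths and 3' UTRs came from GENCODE M21: 49056 of 49315 gene IDs matched. No library pair of a group agreed within sampling noise (chi-square per degree of freedom 20.8 to 99.9).

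Counts were filtered with filterByExpr (minimum count 10), scaled by TMM, fitted with robust glmQLFit and tested with glmQLFTest, two-sided, in edgeR 4.0.16 (R 4.3.3), with Benjamini-Hochberg adjustment over 17920 genes and a threshold of 0.05. The script was tested on simulated data. CPM and RPKM use TMM-scaled library sizes, and standard errors and 95% intervals come from the F statistic. Alternatives were other normalizations, DESeq2 1.42.0, limma 3.58.1 (voom), other filters, dispersion that is not robust, the replicate number as a block, and each library left out.

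The members and lists were chosen with earlier results of these data known. Values in every library are given for members that passed and for the 3 with the lowest p in each class, and beside these for Col1a1, Thbs1 and the Col5a1 to Col5a2 ratio, chosen after their values were seen. In related lists the 2 with the lowest p are named.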

Additional observations from a re-analysis of the deposited data

Results flagged for a closer look

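Among the 38 genes, 2 had a KO library far from the other 3, by a gap test on the 4 KO libraries. With this test chance flags about 1 in 20 groups, and 2 flags among 38 genes are near that rate. The share flagged among all tested genes was not computed, so whether the flags exceed chance was not tested. Col1a1 stood at 62.48 CPM in KO 4, against 27.87 to 30.97 CPM in the other KO libraries. Col1a2 stood at 69.06 CPM in KO 4, against 39.03 to 40.95 CPM. These are the chains of one protein, type I collagen, and KO 4 was the outlying library for both. In the same library the 8 osteoblast markers summed to 86.7 CPM, against 58.1 to 69.5 CPM in the other KO libraries. Runx2 made up most of these sums, at 52.9 CPM in KO 4 and 41.5 to 48.5 CPM in the other KO libraries. Among the KO libraries Sp7 was highest in KO 1, Alpl in KO 3 and the other osteoblast markers in KO 4. The part of osteoblasts in the result was not tested.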

How the results depend on the processing

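Every class median stayed below 0 in all alternatives run, and the median of the 38 genes ran from -0.82 to -0.48 over the fits that leave out 1 library (-0.48 without flox 1). The cartilage median of -1.34 was -1.02 with the replicate block and ran from -1.47 to -0.49 with 1 library left out. The count of 26 genes called over all genes was 362 with DESeq2, 13 with limma-voom, 112 with no filter, 16 with dispersion that is not robust, 4 with the replicate block and 2 to 14 with 1 library left out. Of the 38 genes, 11 were called with DESeq2, 0 with limma-voom, 2 with no filter, 0 with dispersion that is not robust and 0 to 1 with 1 library left out. The 1 gene called with the replicate block, and without KO 4, was Col1a2, not Col2a1. KO 4 has no flox library of the same number, so the block leaves it no weight in the contrast. These settings are thus not independent, and both gave -1.03 for Col1a2. Under the block, Col2a1 had an edgeR adjusted p = 0.222 and Thbs1 a log2 fold change of -0.035, against 0.14. With 1 library left out, Col5a1 ran from -0.21 to 0.26, Nid2 from -0.63 to 0.13, Thbs1 from -0.10 to 0.33, Ogn from -0.80 to 0.16 and Mmp14 from -0.15 to 0.13, so their directions were not stable. The cause of these shifts was not tested. The replicate numbers are shared by flox and KO only as numbers: deviations of same-numbered libraries correlated at -0.022, 0.077 and 0.023. Low counts, such as 37 to 155 per library for Col2a1, limit the precision of the rarest genes.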
